A study of Mus musculus with 16 samples.

Results

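The genes described here are the EGR transcription factors, the NR4A nuclear receptors and the NAB corepressors of the EGR factors, 9 genes in all (Egr1, Egr2, Egr3, Egr4, Nr4a1, Nr4a2, Nr4a3, Nab1 and Nab2) among 55401 gene identifiers in the hypothalamus data. They were chosen by family and role, but with the levels of several of them in ASIC1a-/- and WT hypothalamus at ZT13 already known, and Egr1, Egr2, Egr3, Nr4a1 and Nr4a3 stand among the genes that the study picked from the same libraries. For that reason the comparison of genotypes at ZT13, and any contrast that holds it, is given for these genes as a description with no p. The study asked how deletion of the acid-sensing ion channel ASIC1a, a proton-gated sodium channel of neurons, changes gene expression in the hypothalamus at different times of day. The groups were of male mice aged 3 months, 4 in each: ASIC1a-/- at ZT13, WT at ZT13, ASIC1a-/- at ZT1 and WT at ZT1. All mice were on a C57BL/6 background and were kept on a light-dark cycle. Zeitgeber time (ZT) counts hours from lights on, so ZT1 lies early in the light phase and ZT13 early in the dark phase, when mice are active. The ASIC1a-/- mice lack the channel in the whole body and throughout life, and both genotypes came from heterozygous breeding. Each library held the whole hypothalamus of 1 mouse.

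EGR and NR4A genes are immediate early genes, which cells switch on within minutes of a stimulus without making new protein first. In neurons, calcium entry and growth factor signals reach them through the Ras-ERK cascade and through the factors SRF, ELK and CREB at their promoters, so that their mRNA is widely read as a trace of recent activity. EGR proteins are zinc-finger factors that bind GC-rich DNA elements, and NAB1 and NAB2 bind to EGR1, EGR2 and EGR3 and turn them into repressors. Nab2 is itself a target of EGR factors, which closes a feedback loop. NR4A proteins are orphan nuclear receptors that act without a known ligand, so that their amount largely sets their activity, and Nr4a2 is in addition a lasting identity factor of midbrain dopamine neurons and some posterior hypothalamic neurons. In the suprachiasmatic nucleus of the hypothalamus, light at night induces Egr and Nr4a genes.

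The libraries held 34888522 to 42326259 expected counts (median 35750448), and levels are given in CPM, expected counts scaled to library size by the trimmed mean of M values. Asic1, the targeted gene, had 64.9 to 71.9 CPM in the 8 ASIC1a-/- libraries, against 97.1 to 106 CPM in the 8 WT libraries. Its expected counts were lower in ASIC1a-/- mice at both times (log2 fold change -0.48 ± 0.028 at ZT13 and -0.62 ± 0.028 at ZT1, SE, adjusted p = 1.3e-08 and 3.5e-10, edgeR quasi-likelihood test), but its TPM was higher, at 72.8 to 84.0 in ASIC1a-/- libraries against 60.8 to 71.1 in WT libraries. RSEM assigned Asic1 a mean transcript length of 1819 bp in the ASIC1a-/- ZT13 libraries, against 3060 bp in the WT ZT13 libraries. All 12 hypothalamus markers examined were found in every library. The sum of 8 meningeal markers was 137 TPM in one ASIC1a-/- ZT13 library (replicate 2) and 252 TPM in one ASIC1a-/- ZT1 library (replicate 4), against 34.7 to 73.2 TPM in the other 14, and values whose call or size changes without this pair are also given without it. In whole tissue, fewer cells of a type and less RNA per cell cannot be told apart.

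The sequences upstream of the genes are shown first. The part of the short elements they hold in the levels of the members was not tested. RefSeq promoters were at hand for 7 of the 9 genes, all but Egr1 and Egr3, and the 250 bases upstream of each start were searched on both strands for the cAMP response element (CRE, TGACGTCA), its half-site (TGACG), the CArG box bound by SRF, the EGR element (GCGTGGGCG or GCGGGGGCG) and the NR4A element NBRE (AAAGGTCA). Bases that the annotation places in exons were searched but are left out of the stretches shown, so the Nr4a3 stretch is shorter and holds 3 of its 4 half-sites. Nr4a2 is shown beside them as a member with as many half-sites that was called in no comparison. Capitals mark the CRE half-sites on either strand, the CArG box in Egr2 and the EGR element of the G form in Nr4a1. The stretches, in GRCm38.p6 and written 5′ to 3′ in the direction of transcription, are Egr2 at chr10:67537619-67537868 (plus strand), Egr4 at chr6:85513590-85513839 (minus strand), Nr4a1 at chr15:101266596-101266845 (plus strand), Nr4a3 at chr4:48045055-48045152 (plus strand) and Nr4a2 at chr2:57124004-57124253 (minus strand).
Egr2: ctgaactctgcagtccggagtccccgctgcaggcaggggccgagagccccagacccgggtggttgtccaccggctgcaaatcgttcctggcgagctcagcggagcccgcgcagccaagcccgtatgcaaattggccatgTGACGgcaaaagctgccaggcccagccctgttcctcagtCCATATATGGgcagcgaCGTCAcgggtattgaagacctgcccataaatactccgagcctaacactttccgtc
Egr4: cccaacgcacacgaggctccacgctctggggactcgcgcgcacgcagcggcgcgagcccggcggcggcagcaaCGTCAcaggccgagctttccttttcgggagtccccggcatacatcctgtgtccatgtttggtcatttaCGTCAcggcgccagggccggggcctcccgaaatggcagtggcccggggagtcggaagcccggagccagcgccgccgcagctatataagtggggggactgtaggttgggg
Nr4a1: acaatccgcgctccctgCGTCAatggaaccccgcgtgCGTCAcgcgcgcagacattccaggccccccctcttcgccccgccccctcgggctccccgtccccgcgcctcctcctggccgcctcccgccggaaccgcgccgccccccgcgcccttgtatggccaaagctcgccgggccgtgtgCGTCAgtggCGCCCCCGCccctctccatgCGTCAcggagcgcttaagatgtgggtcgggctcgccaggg
Nr4a3: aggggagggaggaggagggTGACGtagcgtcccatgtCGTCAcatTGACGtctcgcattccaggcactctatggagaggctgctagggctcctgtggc
Nr4a2: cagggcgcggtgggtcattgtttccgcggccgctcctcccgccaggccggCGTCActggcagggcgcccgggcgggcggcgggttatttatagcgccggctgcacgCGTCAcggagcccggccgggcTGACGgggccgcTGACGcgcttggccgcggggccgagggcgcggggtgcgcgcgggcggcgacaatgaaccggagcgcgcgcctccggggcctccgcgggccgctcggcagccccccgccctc

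Each of Nr4a1, Nr4a2 and Nr4a3 held 4 CRE half-sites within 250 bases of the start, a number that 0.137% of the 32851 promoters reach, while 17.8% hold at least 1. In Nr4a1 the half-sites began 233, 213, 69 and 40 bases upstream, in Nr4a2 200, 144, 123 and 111, and in Nr4a3 231, 213, 205 and 147. Egr2 held 2 half-sites, 111 and 55 bases upstream, with a CArG box between them at 72, and a second Egr2 window starting further upstream held another CArG box at 72. Egr4 held 2 half-sites, at 177 and 109. A CArG box occurs in 1.47% of all promoters. Nab1 held 2 EGR elements of the T form, at 141 and 109, and 1 of the G form at 38, elements found in 0.536% and 2.57% of promoters, and a half-site at 123 that lies between them. All of these Nab1 matches lie in annotated Nab1 exon, which covers 231 of the 250 bases of its window. No full CRE (1.55% of promoters) or NBRE (1.34%) was found in the windows of these genes, and the Nab2 window held none of the motifs. That window, chr10:127666704-127666953, lies inside the annotated Nab2 gene (127660918 to 127668568, minus strand). Bases upstream of the annotated 5′ end of Nab2 were not searched. The Nr4a1 window and the Egr2 window shown above also lie inside their annotated genes. The Egr2 window over the annotated start (67535249 to 67535498) held no match. A match of letters is not evidence of binding, and Nr4a2, which did not move with the other members, carried as many half-sites as Nr4a1 and Nr4a3.

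**Figure D1:**
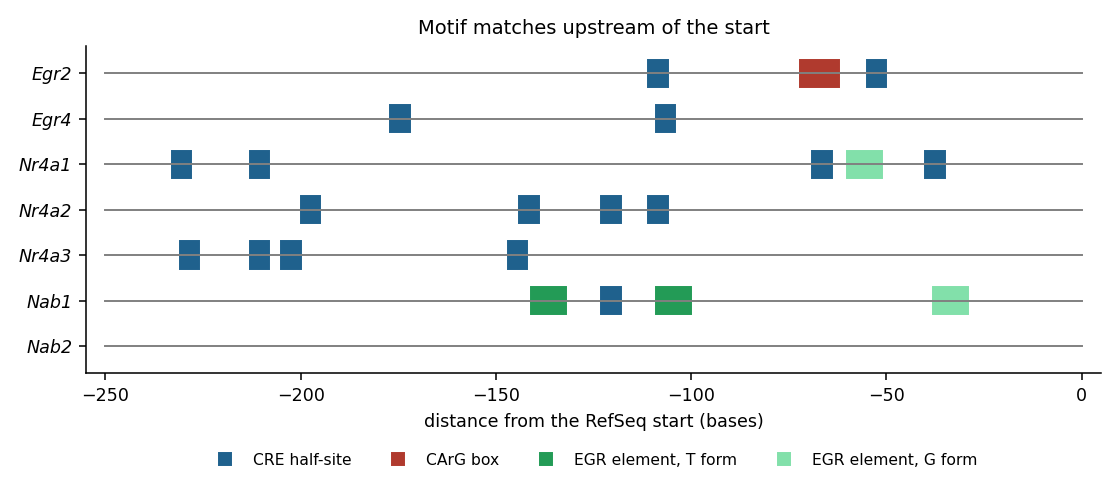
Matches to 4 motifs in the 250 bases upstream of the RefSeq start of 7 genes; the x axis is the distance from the start in bases, each box is a match drawn to length, and a single window is drawn for Egr2. The 3 Nr4a genes hold 4 CRE half-sites each. Nab1 holds 3 EGR elements, all within annotated Nab1 exon. The Nab2 window, which lies inside the annotated gene, holds no match.

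At ZT13 every member had a log2 fold change above 0 in ASIC1a-/- hypothalamus, with a median of 0.77 over the 9 genes against 0.000043 over all genes. The fit called 4 of the 9 (Egr1, Egr2, Nr4a1 and Nr4a3) at an adjusted p under 0.05, beside 0.101% of the 15808 genes tested (16 genes, 13 higher and 3 lower); since the members were chosen with these values known, nothing is read from that count. The ASIC1a-/- and WT libraries did not overlap at ZT13 for 6 of the 9 genes (Egr1, Egr2, Egr3, Nr4a1, Nr4a3 and Nab1), beside 2.58% of all genes, a count from which nothing is read for the same reason. Without the pair of libraries high in meningeal markers 3 of the 9 were called, Nr4a3 no longer. The values on either side of the threshold were 0.59 ± 0.108 (SE) for Nr4a3, called, and 0.78 ± 0.150 for Egr3, not called. At ZT1, in the 8 other mice, 0 of 9 were called by the edgeR test, beside 0.0127% of all genes (2 genes, both lower, while 1107 had an unadjusted p under 0.05, DESeq2 called 7, and with no filter 15 were called, 10 higher and 5 lower). The median log2 fold change of the members at ZT1 was 0.14, and the groups overlapped for all 9, beside 2.92% of all genes that did not overlap, a share at which 9 genes are not distinguished from any others. At an unadjusted p under 0.05 the edgeR test held 1 of the 9 at ZT1 (Egr1), and DESeq2 called 0.

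Between ZT13 and ZT1 most members differed in ASIC1a-/- mice. In ASIC1a-/- hypothalamus 7 of 9 were called (Egr1, Egr2, Egr3, Egr4, Nr4a1, Nr4a3 and Nab2, all higher), beside 11.3% of all genes. In WT hypothalamus 3 of 9 were called (Egr1, Nr4a3 and Nab2, all higher), beside 13.3% of all genes. The median log2 fold change of the members was 1.01 in ASIC1a-/- mice and 0.18 in WT mice. Without the pair of libraries high in meningeal markers 6 and 3 were called, Egr4 no longer in ASIC1a-/- mice. These time comparisons share their ZT13 libraries with the comparison of genotypes at ZT13, so they are not independent of it. The p of the members over time, here and below, rest in part on libraries whose values were known when the genes were chosen. Markers of other tissues moved with time as well. In WT mice 3 of 3 tested anterior pituitary markers were called, with a median log2 fold change of 3.66 (sums of 15.7 to 110 TPM at ZT13 and 1.43 to 9.40 TPM at ZT1). Endothelial markers were called in 4 of 6 cases (median -0.31, 77.0 to 82.5 TPM at ZT13 and 87.8 to 95.6 TPM at ZT1) and mural cell markers in 2 of 6 (median -0.38, 84.6 to 98.1 TPM and 106 to 122 TPM). In ASIC1a-/- mice the calls were 0 of 3 for anterior pituitary (median -1.43), 3 of 6 for endothelial (-0.12) and 1 of 6 for mural cells (-0.10), and 0 of 8 for meninges (-1.02). Their part in the time changes of the members was not tested. A member enters the fit when it passes 1 CPM in at least 1 library, about 35 to 42 counts. Egr2 passed only through the 4 ASIC1a-/- ZT13 libraries and Egr4 only through 2 of them, so both were bound to look high there. With no filter, which tests all 9 genes whatever their level, the same counts of 7 and 3 were called.

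**Figure D2:**
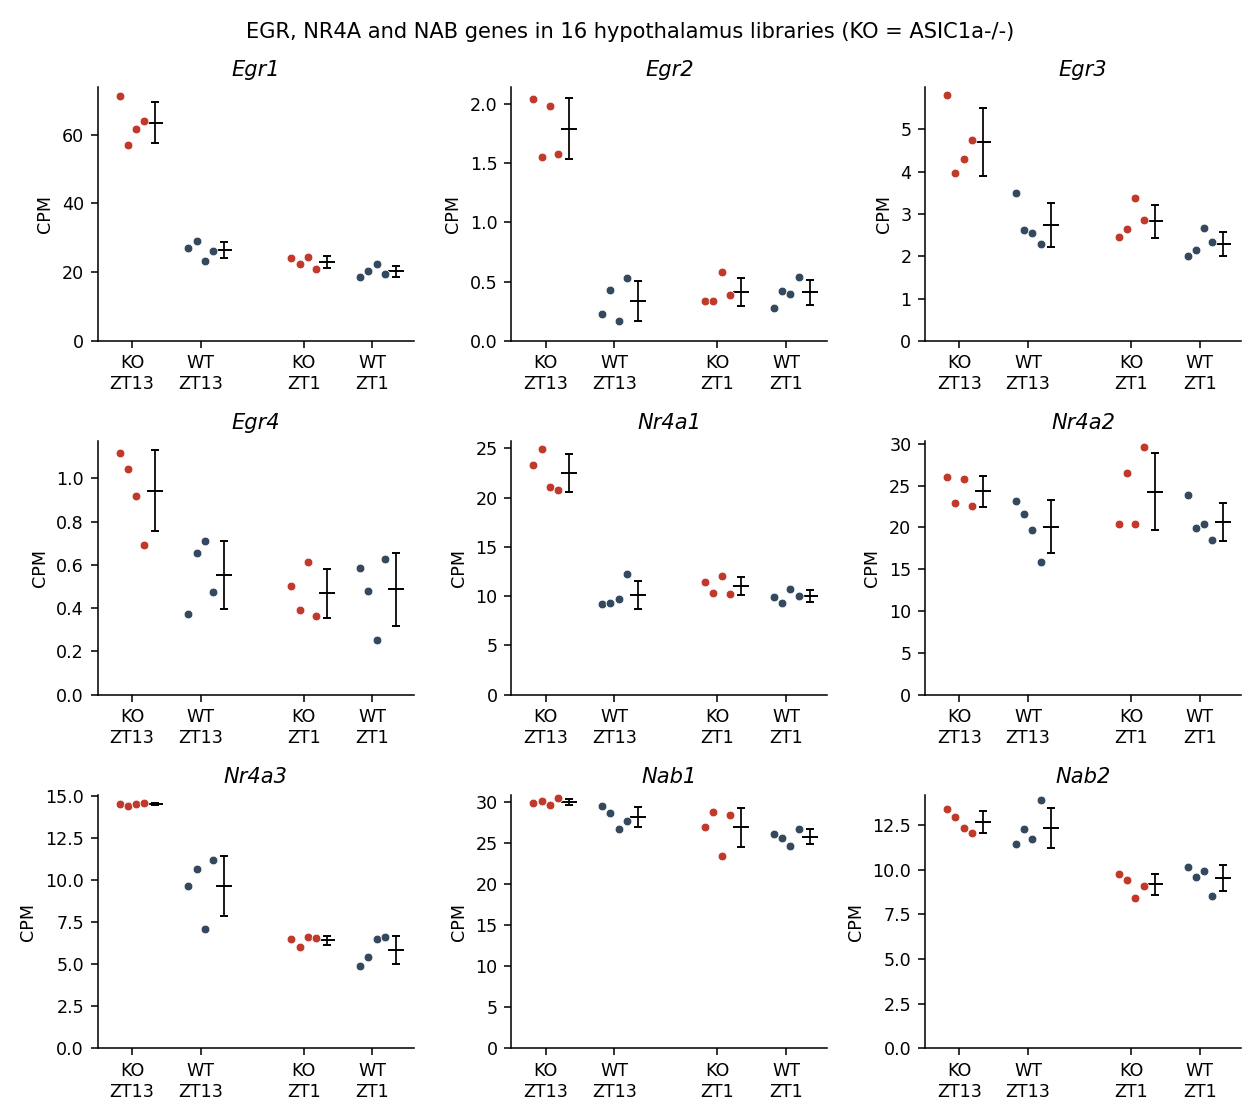
Level of the 9 genes in CPM (y axis, from 0) in each of the 16 libraries, by group on the x axis, with ASIC1a-/- libraries (KO) in red and WT libraries in dark blue. Each point is 1 mouse and the bar beside it is the group mean with its SD; Egr1, Egr2, Egr3, Nr4a1 and Nr4a3 are higher in all 4 ASIC1a-/- ZT13 libraries than in any other library.

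Egr1, the most abundant EGR gene and the one most used as an activity marker, lies on chromosome 18 (34859823 to 34864984, plus strand, GRCm38). It had 71.2, 56.9, 61.8 and 64.1 CPM in the ASIC1a-/- ZT13 libraries, against 26.9, 29.2, 23.4 and 26.1 CPM in the WT ZT13 libraries. The ZT1 values were 24.2, 22.5, 24.3 and 20.9 CPM in the ASIC1a-/- ZT1 libraries, against 18.7, 20.5, 22.5 and 19.4 CPM in the WT ZT1 libraries. The ASIC1a-/- ZT13 libraries stood apart from the other 12, with a lowest value of 56.9 CPM against a highest value of 29.2 CPM elsewhere. The log2 fold change between genotypes at ZT13 was 1.27 ± 0.0736 (SE), a 2.41-fold higher level. At ZT1 it was 0.18 ± 0.0794 (adjusted p = 0.680, edgeR), and the groups overlapped. Egr1 rose in the dark phase in both genotypes, by 1.47 ± 0.0745 in ASIC1a-/- mice (adjusted p = 1.2e-09) and by 0.38 ± 0.0786 in WT mice (adjusted p = 0.00372), and in each genotype all 4 ZT13 libraries were above all 4 ZT1 libraries. Each of these calls held in all 26 alternative settings. The difference between these changes was 1.08 ± 0.108, given as a description because it holds the ZT13 contrast. The lowest Egr1 level of the ASIC1a-/- ZT13 group was in replicate 2, the library high in meningeal markers.

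Egr2, which drives myelination in Schwann cells and is induced in neurons by strong stimulation, lies on chromosome 10 (67535475 to 67542188, plus strand). It was scarce except in one group. It had 2.04, 1.55, 1.98 and 1.58 CPM in the ASIC1a-/- ZT13 libraries, against 0.229, 0.426, 0.170 and 0.528 CPM in the WT ZT13 libraries. In expected counts these were 55 to 84 per ASIC1a-/- library, against 6 to 19 per WT library. In the light phase the levels were 0.336, 0.336, 0.584 and 0.391 CPM in the ASIC1a-/- ZT1 libraries, against 0.279, 0.422, 0.394 and 0.542 CPM in the WT ZT1 libraries. Every ASIC1a-/- ZT13 library was above every other library, and the remaining groups overlapped. Egr2 entered the fit only through the 4 ASIC1a-/- ZT13 libraries, so it was bound to look high there. The log2 fold change between genotypes at ZT13, 2.39 ± 0.281, had the highest value among the 9 genes, and at ZT1 it was 0.011 ± 0.318 (adjusted p = 0.996). In the dark phase Egr2 rose by 2.11 ± 0.273 in ASIC1a-/- mice (adjusted p = 8.2e-05, 1.7e-06 with no filter), and in WT mice the log2 fold change was -0.27 ± 0.328 (adjusted p = 0.656). On log2(TPM + 1), which compresses low levels, the difference between genotypes at ZT13 was 1.01.

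Egr3, a factor that often follows Egr1 and acts in muscle spindles and in synaptic plasticity, lies on chromosome 14 (70077203 to 70082614, plus strand). It had 5.80, 3.96, 4.29 and 4.74 CPM in the ASIC1a-/- ZT13 libraries, against 3.49, 2.61, 2.55 and 2.28 CPM in the WT ZT13 libraries. At ZT1 its levels were 2.46, 2.63, 3.37 and 2.85 CPM in the ASIC1a-/- ZT1 libraries, against 2.01, 2.14, 2.67 and 2.34 CPM in the WT ZT1 libraries. The ZT13 groups did not overlap in CPM, and the log2 fold change was 0.78 ± 0.150. The transcript length assigned to it averaged 3552 bp in ASIC1a-/- and 2693 bp in WT libraries at ZT13, and its TPM, which divides by length, overlapped between the genotypes: 2.20 to 4.04 in ASIC1a-/- and 1.47 to 3.20 in WT libraries. On log2(TPM + 0.1) the difference between genotypes was 0.33. Egr3 rose in the dark phase in ASIC1a-/- mice by 0.73 ± 0.149 (adjusted p = 0.00430), a call that was lost on TPM (adjusted p 0.249 to 0.279 over the 3 TPM settings, 0.000213 to 0.279 over all 26 alternatives). In WT mice the log2 fold change was 0.26 ± 0.158 (adjusted p = 0.321).

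Egr4, the EGR factor on which NAB proteins are not known to act, lies on chromosome 6 (85511121 to 85513589, minus strand) and was as scarce as Egr2 outside the ASIC1a-/- ZT13 group. It had 1.12, 1.05, 0.918 and 0.693 CPM in the ASIC1a-/- ZT13 libraries, against 0.372, 0.654, 0.709 and 0.473 CPM in the WT ZT13 libraries. Its ZT1 levels were 0.504, 0.392, 0.612 and 0.363 CPM in the ASIC1a-/- ZT1 libraries, against 0.586, 0.478, 0.253 and 0.627 CPM in the WT ZT1 libraries. The lowest ASIC1a-/- ZT13 library lay just below the highest WT ZT13 library, so the genotypes overlapped, with a log2 fold change of 0.77 ± 0.271. At ZT1 it was -0.055 ± 0.3 (adjusted p = 0.983), and turned to 0.047 without the pair of libraries high in meningeal markers. Egr4 entered the fit only through 2 of the ASIC1a-/- ZT13 libraries, so it was bound to look high there. Within ASIC1a-/- mice all ZT13 libraries were above all ZT1 libraries, and Egr4 rose by 1.01 ± 0.277 (adjusted p = 0.0254, 0.0278 with no filter). That call rested on few reads, 25 to 41 expected counts per ASIC1a-/- ZT13 library and 13 to 22 per ASIC1a-/- ZT1 library. With single libraries left out it was lost on 4 occasions. The adjusted p was 0.0769 and 0.0563 without the first or the second of the ASIC1a-/- ZT13 replicates, and 0.0704 and 0.0657 without replicate 2 or replicate 4 of the ASIC1a-/- ZT1 group. It was also lost without the pair of libraries high in meningeal markers (0.115) and on genes over 1 TPM (0.0648), over a range of 0.0151 to 0.115 in 26 alternatives. In WT mice the log2 fold change was 0.18 ± 0.294 (adjusted p = 0.747).

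Nr4a1, the receptor also called NUR77, which neurons and T cells induce when stimulated, lies on chromosome 15 (101254269 to 101274795, plus strand). It had 23.3, 24.9, 21.0 and 20.7 CPM in the ASIC1a-/- ZT13 libraries, against 9.15, 9.29, 9.72 and 12.2 CPM in the WT ZT13 libraries. In ZT1 mice the values were 11.4, 10.3, 12.1 and 10.2 CPM in the ASIC1a-/- ZT1 libraries, against 9.94, 9.31, 10.7 and 10.01 CPM in the WT ZT1 libraries. The lowest ASIC1a-/- ZT13 library had 20.7 CPM and the highest of the other 12 libraries had 12.2 CPM. The log2 fold change between genotypes was 1.15 ± 0.0863 at ZT13 and 0.14 ± 0.0900 at ZT1 (adjusted p = 0.793). By time of day Nr4a1 rose in ASIC1a-/- mice by 1.03 ± 0.0856 (adjusted p = 6.5e-07, edgeR), in a comparison that holds the ASIC1a-/- ZT13 libraries known at the choice of genes. In WT mice the log2 fold change with time was 0.014 ± 0.0907 (adjusted p = 0.947). The difference between these changes was 1.02 ± 0.125, a description for the same reason as in Egr1.

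Nr4a1 lies on the same chromosome as the targeted gene, 1.55 Mb from Asic1. Among the 27 genes tested between them, log2 fold changes at ZT13 ran from -0.15 to 0.23 and 1 gene was called (Cers5, a ceramide synthase). Within 500 kb of Nr4a1, 10 other genes were tested, with log2 fold changes from -1.05 to 0.76, a median of 0.0092 and 1 call (Krt90). At ZT1 the calls were 0 of 27 (-0.11 to 0.71) and 1 of 10 (-1.17 to 2.11), Krt90 again. The part of this position in the level of Nr4a1 was not tested.

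Nr4a3, the receptor called NOR1, lies on chromosome 4 (48045153 to 48086447, plus strand). It had 14.5, 14.4, 14.6 and 14.6 CPM in the ASIC1a-/- ZT13 libraries, against 9.69, 10.7, 7.12 and 11.2 CPM in the WT ZT13 libraries. The light-phase values were 6.52, 6.05, 6.65 and 6.56 CPM in the ASIC1a-/- ZT1 libraries, against 4.91, 5.43, 6.50 and 6.61 CPM in the WT ZT1 libraries. The ASIC1a-/- ZT13 libraries lay within 14.4 and 14.6 CPM (SD 0.0773), while the WT ZT13 libraries ran from 7.12 to 11.2 CPM (SD 1.81), and the genotypes did not overlap. The log2 fold change between genotypes was 0.59 ± 0.108 at ZT13 and 0.14 ± 0.118 at ZT1 (adjusted p = 0.836). Its call at ZT13 was the least firm of the 4, made in 11 of 26 alternatives. Nr4a3 rose in the dark phase in both genotypes, by 1.17 ± 0.111 in ASIC1a-/- mice (adjusted p = 3.4e-06) and by 0.72 ± 0.115 in WT mice (adjusted p = 0.000555), with no overlap between times in either. In WT mice the change of Nr4a3 was the highest of the 9 genes.

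Nr4a2, called NURR1, lies on chromosome 2 (57106830 to 57124003, minus strand) and was the one member of its family not called in any comparison. It had 26.0, 22.9, 25.8 and 22.5 CPM in the ASIC1a-/- ZT13 libraries, against 23.2, 21.6, 19.7 and 15.9 CPM in the WT ZT13 libraries. At ZT1 the levels were 20.4, 26.5, 20.5 and 29.7 CPM in the ASIC1a-/- ZT1 libraries, against 23.8, 19.96, 20.4 and 18.5 CPM in the WT ZT1 libraries. All 4 groups overlapped. The log2 fold change between genotypes was 0.28 ± 0.121 at ZT13 and 0.23 ± 0.121 at ZT1 (adjusted p = 0.727), and that between times was 0.0054 ± 0.119 in ASIC1a-/- mice (adjusted p = 0.983) and -0.041 ± 0.123 in WT mice (adjusted p = 0.873). Without the pair of libraries high in meningeal markers the log2 fold change was 0.12 ± 0.116 between genotypes at ZT1 (adjusted p = 0.930) and 0.15 ± 0.122 between times in ASIC1a-/- mice (adjusted p = 0.519). No alternative called Nr4a2 in the ZT1 or the time comparisons.

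The genes most like Nr4a2 over the 16 libraries were Lmx1b (r = 0.94), Ndnf (0.91) and Foxa1 (0.90), and after centring on the group means Ntn1 (0.93), Ndnf (0.92) and Lmx1b (0.92), out of 14956 genes compared. Lmx1b and Foxa1 are transcription factors that mark midbrain dopamine neurons and posterior hypothalamic neurons. Lmx1b had 10.2, 9.72, 9.94 and 8.79 CPM in the ASIC1a-/- ZT13 libraries, against 9.38, 7.99, 8.53 and 5.76 CPM in the WT ZT13 libraries. The library lowest in Lmx1b, WT ZT13 replicate 4, was also lowest in Nr4a2, and the library highest in Lmx1b, ASIC1a-/- ZT1 replicate 4 with 11.9 CPM, was also highest in Nr4a2 and is the library highest in meningeal markers. Without the pair high in those markers, r with Lmx1b was 0.93, and 0.91 after centring, over 14 libraries. The dopamine genes Th (tyrosine hydroxylase), Ret (a receptor for growth factors of the GDNF family), Slc18a2 and Slc6a3 (monoamine and dopamine transporters) correlated with Nr4a2 after centring at 0.89, 0.91, 0.81 and 0.77. Without centring these r were 0.76, 0.74, 0.70 and 0.74. Nr4a1 correlated with Nr4a2 at -0.68 after centring and at 0.27 without it, so the sign depends on the group means. These are correlations over 16 libraries that share 4 group means, given as a description, and their part in the level of Nr4a2 was not tested.

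**Figure D3:**
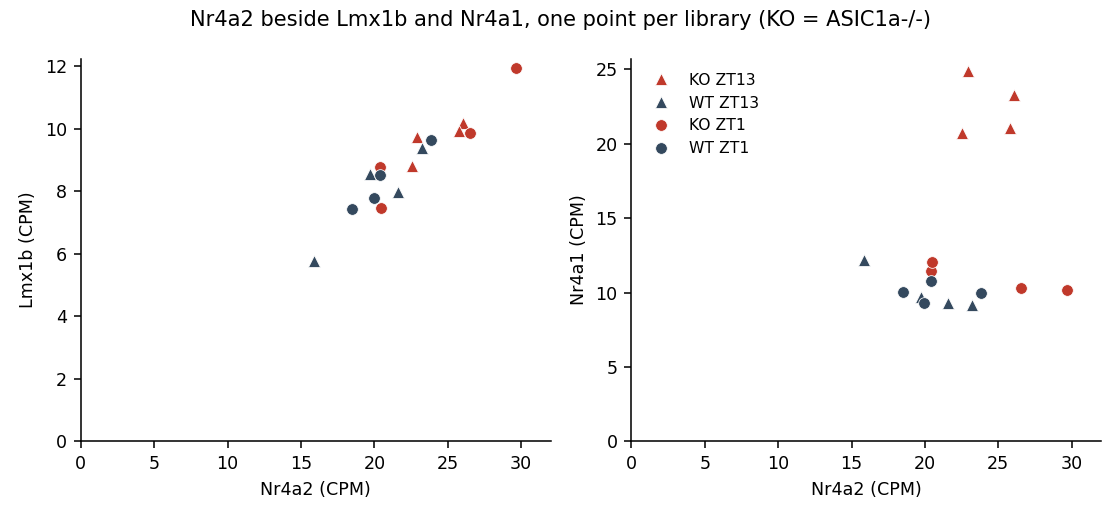
Lmx1b (left) and Nr4a1 (right) in CPM against Nr4a2 in CPM, 1 point for each of the 16 libraries, with ASIC1a-/- (KO) in red, WT in dark blue, ZT13 as triangles and ZT1 as circles. Nr4a2 tracks Lmx1b across all groups (r = 0.94), while the 4 ASIC1a-/- ZT13 libraries stand above the rest in Nr4a1 at Nr4a2 levels that the other groups share.

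The NAB corepressors had the log2 fold changes nearest to 0 between genotypes at ZT13. Nab2 (chromosome 10, 127660918 to 127668568, minus strand) had 13.4, 13.0, 12.3 and 12.1 CPM in the ASIC1a-/- ZT13 libraries, against 11.4, 12.3, 11.7 and 13.9 CPM in the WT ZT13 libraries. The values at ZT1 were 9.79, 9.44, 8.40 and 9.10 CPM in the ASIC1a-/- ZT1 libraries, against 10.1, 9.59, 9.93 and 8.52 CPM in the WT ZT1 libraries. The genotypes overlapped at both times, with log2 fold changes of 0.040 ± 0.0713 at ZT13 and -0.056 ± 0.0742 at ZT1 (adjusted p = 0.901). By time of day Nab2 rose in both genotypes, by 0.47 ± 0.0727 in ASIC1a-/- mice (adjusted p = 0.000495) and by 0.37 ± 0.0728 in WT mice (adjusted p = 0.00278), with no overlap between ZT13 and ZT1 libraries in either. The change with time differed between the genotypes by 0.096 ± 0.103.

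Nab1, the paralog of Nab2, lies on chromosome 1 (52457294 to 52500679, minus strand). It had 29.8, 30.1, 29.6 and 30.5 CPM in the ASIC1a-/- ZT13 libraries, against 29.5, 28.6, 26.7 and 27.7 CPM in the WT ZT13 libraries. In the ZT1 groups it had 26.9, 28.8, 23.5 and 28.4 CPM in the ASIC1a-/- ZT1 libraries, against 26.1, 25.6, 24.7 and 26.7 CPM in the WT ZT1 libraries. The ZT13 libraries of the genotypes just failed to overlap, at 29.6 and 29.5 CPM, with a log2 fold change of 0.092 ± 0.0510, and at ZT1 it was 0.060 ± 0.0519 (adjusted p = 0.836). For ZT13 against ZT1, Nab1 stood at 0.16 ± 0.0511 in ASIC1a-/- mice (adjusted p = 0.0534) and 0.13 ± 0.0518 in WT mice (adjusted p = 0.121) and was called in 5 of 26 and 1 of 26 alternatives.

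**Figure D4:**
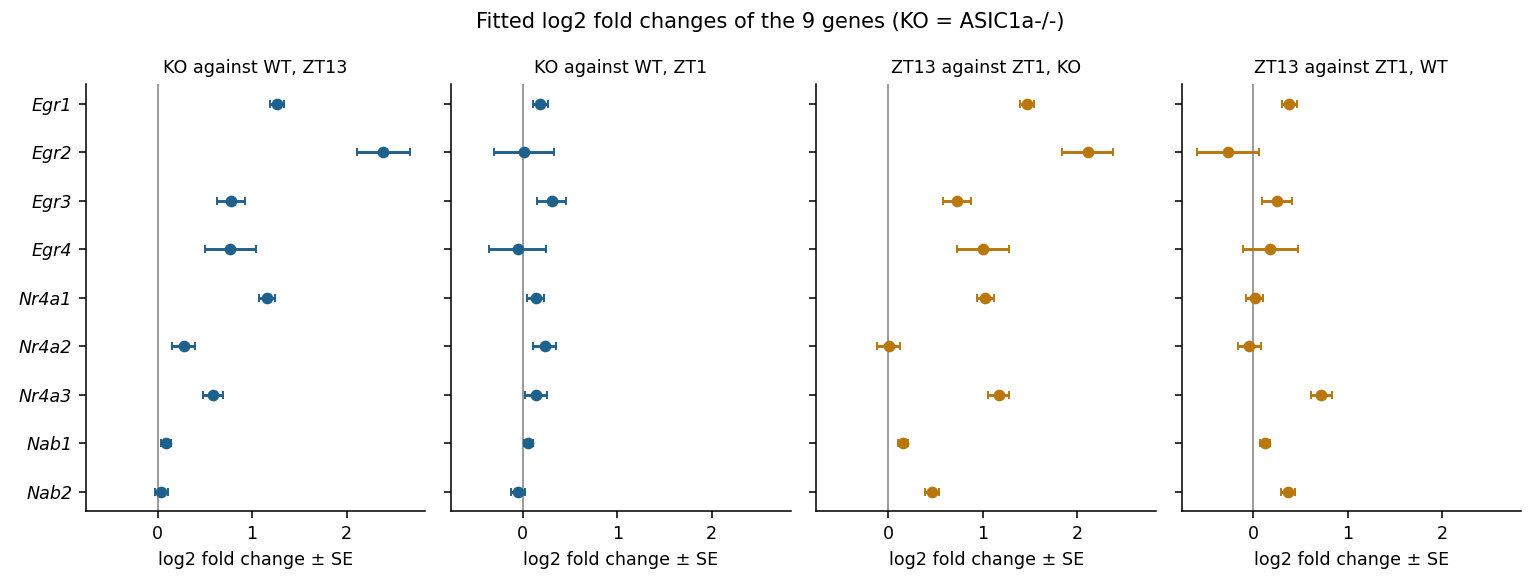
Log2 fold change (x axis) with its SE for the 9 genes (rows) in 4 comparisons, with ASIC1a-/- written KO. All 9 lie right of 0 for the genotypes at ZT13 and for time in ASIC1a-/- mice, with Nr4a2 and the NAB genes nearest to 0 between the genotypes, while at ZT1 all 9 lie between -0.056 and 0.30.

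Levels between genes were compared per length, in TPM. In ASIC1a-/- mice at ZT13 Egr1 led with 42.6 ± 3.82 TPM (SD, n = 4), above Nr4a1 (19.7 ± 2.32) and Nr4a2 (17.9 ± 1.35), whose libraries overlapped each other, followed by Nab1, Nab2, Nr4a3, Egr3, Egr2 and Egr4, of which Egr3 overlapped with Egr2 and Egr2 with Egr4. In WT mice at ZT13 Egr1 was at 17.6 ± 1.46 TPM and overlapped with Nab1 (15.4 ± 0.285), and the order ran on through Nr4a2, Nab2, Nr4a1, Nr4a3, Egr3, Egr4 and Egr2, with neighbours overlapping as far as Nr4a1. At ZT1 Nr4a2 led in both genotypes, with 14.2 to 19.9 TPM in ASIC1a-/- and 12.5 to 16.6 TPM in WT libraries, and overlapped with the next gene in each.

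Summed over each family, the EGR genes held 47.9 ± 4.80 TPM in ASIC1a-/- and 20.6 ± 1.22 TPM in WT libraries at ZT13 (SD, n = 4). At ZT1 they held 17.8 ± 1.79 TPM in ASIC1a-/- and 16.1 ± 1.15 TPM in WT libraries. The NR4A genes held 43.2 ± 2.38 TPM in ASIC1a-/- and 26.6 ± 1.31 TPM in WT libraries at ZT13, and 28.7 ± 1.85 TPM in ASIC1a-/- and 25.6 ± 1.63 TPM in WT libraries at ZT1. The NAB genes held 27.9 ± 0.313 TPM in ASIC1a-/- and 26.6 ± 1.89 TPM in WT libraries at ZT13, and 22.5 ± 1.66 TPM in ASIC1a-/- and 21.9 ± 0.276 TPM in WT libraries at ZT1. The ratio of EGR to NAB transcripts was 1.72 ± 0.176 in ASIC1a-/- and 0.775 ± 0.0681 in WT libraries at ZT13, while at ZT1 it was 0.800 ± 0.126 in ASIC1a-/- and 0.733 ± 0.0610 in WT libraries. Only the ASIC1a-/- ZT13 group had more EGR than NAB transcript in every library (1.53 to 1.95), and the other groups overlapped. Egr1 made up 89.1% of EGR transcripts in ASIC1a-/- and 85.4% in WT libraries at ZT13. Nr4a1 made up 45.6% of NR4A transcripts in ASIC1a-/- and 35.0% in WT libraries at ZT13. These sums concern transcripts and not protein, and no test was made on them because the choice of genes fixes much of the pattern.

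**Figure D5:**
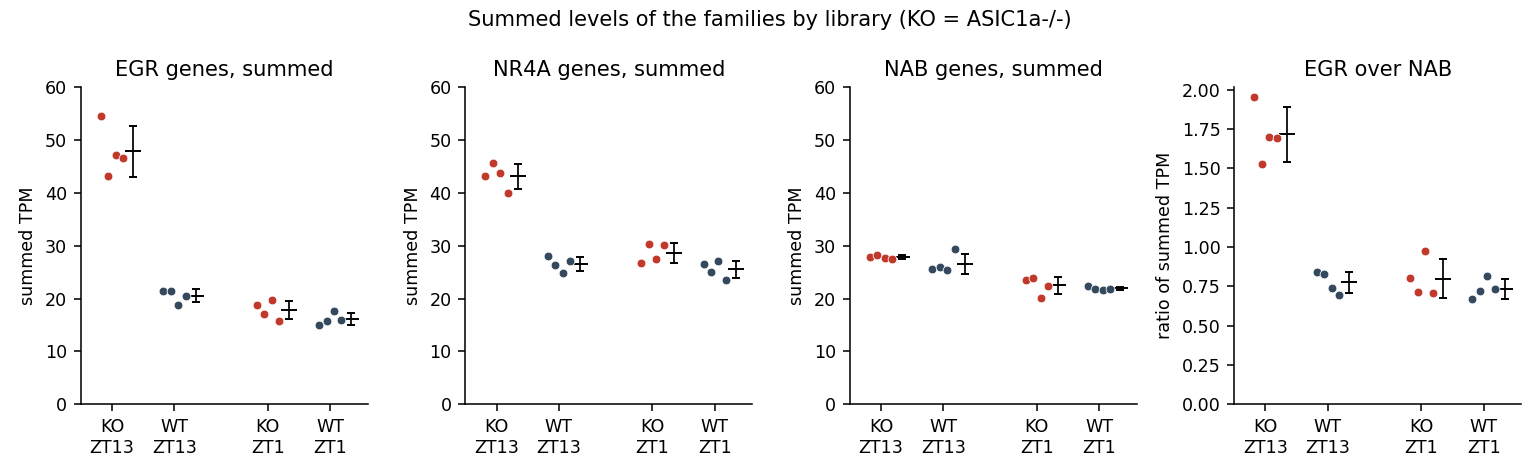
Summed TPM of the EGR, NR4A and NAB genes and the ratio of EGR to NAB (y axes, from 0) in each library by group, ASIC1a-/- (KO) in red and WT in dark blue, with the group mean and SD beside the points. The EGR to NAB ratio lies between 1.53 and 1.95 in the 4 ASIC1a-/- ZT13 libraries and between 0.670 and 0.977 in the other 12.

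For the interaction of genotype and time, 2 of 9 members (Egr1 and Nr4a1) were called, beside 0.019% of all genes (3 genes, all higher); since the interaction holds the ZT13 contrast, nothing is read from that. The difference between the genotype effects was 2.38 ± 0.429 for Egr2, 0.82 ± 0.405 for Egr4, 0.48 ± 0.217 for Egr3 and 0.45 ± 0.160 for Nr4a3, and lay between 0.032 and 0.096 for Nr4a2, Nab1 and Nab2. Egr2 and Egr4 had the widest SE. The call held in 25 of 25 alternatives for Egr1 and in 22 of 25 for Nr4a1. Without the pair of libraries high in meningeal markers, the log2 fold changes between genotypes at ZT13 were 1.32 for Egr1, 2.45 for Egr2, 0.85 for Egr3, 0.72 for Egr4, 1.10 for Nr4a1 and 0.59 for Nr4a3. Over the 23 alternatives on counts that value ran from 1.21 to 1.32 for Egr1, from 2.17 to 2.69 for Egr2, from 1.10 to 1.26 for Nr4a1 and from 0.47 to 0.67 for Nr4a3. No marker of any cell type or neighbouring tissue was called between the genotypes at ZT13 by edgeR. The study, from the same libraries, reports Prl, which is on the anterior pituitary list, as lower in ASIC1a-/- mice at ZT13. Meningeal markers (8 genes) stood at a median of 0.43 on the log2 scale and summed to 34.7 to 137 TPM in ASIC1a-/- and 35.7 to 54.3 TPM in WT libraries, and mural cell markers (6 genes) stood at 0.23 and summed to 92.2 to 146 TPM in ASIC1a-/- and 84.6 to 98.1 TPM in WT libraries. Endothelial markers (6 genes) summed to 81.4 to 96.8 TPM in ASIC1a-/- and 77.0 to 82.5 TPM in WT libraries at ZT13, with a median log2 fold change of 0.16, and cortex and striatum markers (10 genes, Emx1 listed at 0 in at least 1 library) to 56.1 to 60.4 TPM in ASIC1a-/- and 55.7 to 58.9 TPM in WT libraries, with a median of -0.00031. Anterior pituitary markers (5 genes, Pou1f1 and Ghrhr listed at 0 in at least 1 library) summed to 2.01 to 31.03 TPM in ASIC1a-/- and 15.7 to 110 TPM in WT libraries at ZT13, with a median of -2.74. Their part in the levels of the members was not tested.

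No gene on the lists of upstream regulators examined here was called between genotypes by edgeR. These values are mRNA levels, and the activity of the encoded proteins was not measured in these libraries. Of 17 SRF, ELK, MEF2 and CREB regulators, 0 were called by edgeR at ZT13 and 0 at ZT1 (0 and 2 at an unadjusted p under 0.05, 0 by DESeq2), with medians of -0.018 and -0.030 and a range of -0.058 to 0.12 at ZT13. Of 16 genes of the Ras-ERK cascade, 0 were called by edgeR at either time (0 at an unadjusted p under 0.05, 0 by DESeq2), with log2 fold changes from -0.049 to 0.065 at ZT13. By time of day 3 of the 17 regulators rose in ASIC1a-/- mice (Mrtfb, Crebbp and Ep300) and 4 rose in WT mice (the same 3 and Creb1), beside 11.3% and 13.3% of all genes called in either direction. Over 26 alternatives the calls ran from 1 to 4 in ASIC1a-/- and, with Elk3, from 0 to 5 in WT mice. Among those that rose were the histone acetyltransferase Ep300 (0.21 ± 0.0464, adjusted p = 0.00799 in ASIC1a-/- mice and 0.19 ± 0.0465, adjusted p = 0.0102 in WT mice) and the SRF coactivator Mrtfb (0.19 ± 0.0326 and 0.12 ± 0.0326). Elk3, a repressor of the ELK family, fell in WT mice (-0.31 ± 0.0879, adjusted p = 0.0254). In the Ras-ERK cascade the kinase Braf rose in both genotypes (0.085 ± 0.0249 in ASIC1a-/- and 0.099 ± 0.0249 in WT mice).

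On the target lists no gene was called between genotypes by edgeR or DESeq2. Of 13 tested EGR targets (of 16 listed), 0 were called by edgeR at ZT13 and 0 at ZT1 (1 and 5 at an unadjusted p under 0.05, 0 by DESeq2, 0 and 0 to 1 over 26 alternatives), with a median of 0.048 at ZT13, where all genes stood at 0.000043. Arc, an effector of synaptic plasticity, averaged 16.3 ± 1.14 CPM in ASIC1a-/- and 13.7 ± 1.24 CPM in WT libraries at ZT13 (log2 fold change 0.25 ± 0.0734, adjusted p = 0.790). Of 9 NR4A partners and targets, 0 were called between genotypes by edgeR at either time (1 at ZT13 and 4 at ZT1 at an unadjusted p under 0.05, 0 by DESeq2, up to 2 at ZT1 over 26 alternatives). Th, which is on both lists, had 46.9, 40.3, 50.2 and 43.5 CPM in the ASIC1a-/- ZT13 libraries, against 63.2, 102, 56.2 and 104 CPM in the ASIC1a-/- ZT1 libraries, without overlap. In WT mice Th had 55.4, 36.4, 36.5 and 29.97 CPM at ZT13 (mean 39.6) and 71.0, 36.2, 39.5 and 33.6 CPM at ZT1 (mean 45.1), with overlap between the times. The highest WT ZT1 library lay above the lowest ASIC1a-/- ZT1 library, so the genotypes overlapped at ZT1. Between genotypes at ZT1 its log2 fold change was 0.85 ± 0.232 (adjusted p = 0.680, edgeR). The means of Th, Slc18a2 and Ret were each highest in the ASIC1a-/- ZT1 group. In ASIC1a-/- mice Th, Slc18a2 and Ret were lower at ZT13, by 0.85 ± 0.231, 0.51 ± 0.143 and 0.65 ± 0.191 on the log2 scale (adjusted p = 0.0244, 0.0279 and 0.0341). All 3 calls were lost without the pair of libraries high in meningeal markers (adjusted p = 0.143, 0.152 and 0.190). In WT mice 1 of the 9, Crh (corticotropin-releasing hormone), fell by 0.63 ± 0.180 (adjusted p = 0.0261, edgeR). Crh was scarce, at a mean of 1.36 CPM at ZT13 and 2.12 CPM at ZT1 in WT mice, near the filter of 1 CPM. The time calls on this list, 3 of 9 in ASIC1a-/- and 1 of 9 in WT mice, stood beside 11.3% and 13.3% of all genes. The WT count does not set the list apart from other genes. Of 13 subunits of the NuRD complex, a chromatin remodeller that NAB2 recruits, 0 were called between genotypes by edgeR at ZT13 (range -0.042 to 0.023) and 0 at ZT1 (0 at an unadjusted p under 0.05, 0 by DESeq2), while 3 rose with time in ASIC1a-/- and 5 in WT mice (2 to 3 and 2 to 6 over 26 alternatives, beside the same 11.3% and 13.3% of all genes), Chd4, Mta2 and Gatad2b in both, with Rbbp7 and Gatad2a in addition in WT mice.

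Among 29 tested immediate early genes of other families, edgeR called 4 at ZT13 (Fos, Fosb, Junb and Btg2, all higher in ASIC1a-/- mice), beside 0.101% of all genes. At ZT13 15 of the 29 had an unadjusted p under 0.05, DESeq2 called 6, and the calls ran from 4 to 7 over 26 alternatives. At ZT1 0 were called (0 at an unadjusted p under 0.05, 0 by DESeq2), beside 0.0127% of all genes. The median log2 fold change at ZT13 was 0.29 for this list and 0.77 for the 9 members, which were chosen with their ZT13 values known. The AP-1 subunit Fos averaged 29.3 ± 1.75 CPM in ASIC1a-/- and 13.1 ± 3.47 CPM in WT libraries at ZT13, and 7.17 ± 1.14 CPM in ASIC1a-/- and 6.53 ± 0.566 CPM in WT libraries at ZT1 (SD, n = 4 each). By time of day 12 of the 29 rose in ASIC1a-/- mice and 5 rose in WT mice, beside 11.3% and 13.3% of all genes, with Fos, Fosl2, Junb, Homer1 and Per1 in both and Fosb, Btg2, Dusp1, Sik1, Gadd45g, Trib1 and Csrnp1 in addition in ASIC1a-/- mice; whether the changes of these 7 differ between genotypes is not shown by these counts, since edgeR called 0 of the 29 for the interaction (7 at an unadjusted p under 0.05, 3 by DESeq2). Per1, a clock gene that is also induced by CREB, rose by 0.47 ± 0.0747 in ASIC1a-/- and by 0.35 ± 0.0750 in WT mice (adjusted p = 0.000631 and 0.00545). Several of these genes were picked by the study on the same libraries, so the list is not independent of the members.

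Of the 21 genes whose levels were most like a member over the 16 libraries, 3 for each of 7 members, 8 were on this list of immediate early genes, all beside Egr1, Egr3, Nr4a1 or Nr4a3. The list has 29 tested genes, beside 14956 genes compared. Several of its genes were picked by the study on the same libraries, so nothing is read from that count. After centring on the group means 1 of 21 was on the list. Egr1 was closest to Junb (r = 0.94), Fos (0.94) and Fosb (0.94), Nr4a1 to Btg2 (0.96), Ddit4 (0.92) and Junb (0.88), and Nr4a3 to Fos (0.96), Spry4 (0.95) and Stk40 (0.95). Egr3 was closest to Btg2 (0.87), Arl4d (0.85) and Csrnp1 (0.84). Nab2 was closest to Mcl1 (0.97), Zfp948 (0.95) and Ubn1 (0.95). The antiapoptotic gene Mcl1 averaged 79.1 ± 2.61 CPM in ASIC1a-/- and 77.9 ± 4.82 CPM in WT libraries at ZT13, and 64.8 ± 2.04 CPM in ASIC1a-/- and 66.3 ± 1.95 CPM in WT libraries at ZT1. Nab1 was closest to Gca (0.90), Sf3b4 (0.89) and Mxi1 (0.88). Egr2 and Egr4, with means under 1 CPM, were not ranked. Part of each r comes from the 4 group means, and after centring on them none of the 3 genes closest to Egr1 was an immediate early gene (Cops7a, Lrrn2 and Zfp108, r = 0.84 to 0.86). The closest after centring were Rusc2, Ing5 and the AP-1 gene Jun for Nr4a1 (each 0.85), Slc9a3r1, Trmt44 and Myh6 for Nr4a3 (0.84 to 0.88), and Plekhd1, Mplkip and Tspan17 for Egr3 (0.77 to 0.80). For Nab1 they were Rhog, Mxi1 and Cldn11 (0.86 to 0.91), and for Nab2 Layn, Mcl1 and Kif6 (0.79 to 0.85).

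From mouse to mouse within groups, no relation of another member to Egr1 passed the adjusted threshold. After centring, Egr1 correlated with Egr3 at r = 0.54 (Spearman's rho = 0.49), with Nr4a3 at 0.52 (0.39) and with Egr2 at 0.45 (0.43), over 16 libraries. Permutation p within groups were 0.0645, 0.0867 and 0.133 for r and 0.0987, 0.165 and 0.144 for rho, and no p passed after adjustment over the 8 relations (lowest adjusted p = 0.347, permutation test). With the 2 libraries left out whose Egr1 level was most extreme, r was 0.45, 0.42 and 0.28, and on log2 TPM the r with Egr3 was 0.17. For the other 5 genes r lay between -0.23 and 0.14 (permutation p 0.411 to 0.774) and rho between -0.18 and 0.17 (permutation p 0.533 to 0.921).

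The length that RSEM assigned to each gene, a measure of which transcripts were present, was compared between genotypes as a readout that did not enter the choice. In 18 exact permutation tests (9 genes at each time, two-sided, 4 against 4 libraries, smallest possible p = 0.0286) the lowest adjusted p was 0.514, and since a single gene at the smallest possible p would have the same adjusted value, these tests could pass only if many genes separated at once. The lowest raw p, 0.0571 by the exact permutation test, were found at ZT13 for Egr3 (3552 ± 427 bp in ASIC1a-/- and 2693 ± 635 bp in WT libraries) and Nr4a1 (2374 ± 44.1 bp and 2250 ± 59.96 bp). Egr4 has a single annotated transcript, of 2148 bp. The posterior SD of the counts, which RSEM raises where reads are shared with other genes, was 0 for all 9 genes in all 16 libraries, so RSEM divided no read between a member and another gene.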

How the data were processed

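RNA-seq was made from the hypothalamus of 16 mice, 1 library each. The authors deposited RSEM gene tables, in which expected counts are not normalized, TPM are scaled by length and depth, and length and posterior SD (scores of the transcript mix and of read sharing) come from the same run. The submitters' processing notes list RSEM 1.2.31, STAR 2.5.3a and, besides, HTSeq 0.9.1 and cutadapt 1.8, with the builds GRCm38 and mm9; the build was taken as GRCm38 because the identifiers matched that annotation (55141 of 55401 with a symbol), and HTSeq counts were not used here. The paper and the labels name different RNA and library kits, so the kit is not stated.

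Of the expected counts 4.85% were not whole, and all were rounded. Genes over 1 CPM in at least 1 library (15808) were fitted with edgeR 4.0.16 (quasi-likelihood test, TMM scaling, 4 groups, 12 residual degrees of freedom) in R 4.3.3, and p were adjusted over all of them by Benjamini-Hochberg. An SE is the log2 fold change over the square root of F. The script was tested on simulated data. Alternatives used DESeq2 1.42.0, limma 3.58.1 on log2 TPM, other scalings and filters, the replicate number as a block, and libraries left out. Permutation tests used 100000 draws, or all, in Python 3.11.15 with scipy 1.17.1. Figures used matplotlib 3.10.9. Promoters came from RefSeq (GRCm38.p6).

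The members and the gene lists were chosen with earlier results of these data known. All 9 members are named. Of each gene list, the genes called in a comparison are named, and otherwise at most 2 with the lowest p. Some genes of these lists and a marker list are not reported here. For each member of at least 1 CPM on average, the 3 genes of highest Pearson r are named, before and after centring on group means. Other genes named for their neighbourhood or as companions of Nr4a2 were chosen after their values were seen. The labels give 1 mouse per library. Intervals of depth cover counting error only.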

Additional observations from a re-analysis of the deposited data

Results flagged for a closer look

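The interaction of genotype and time was called for 2 members, Egr1 and Nr4a1, and it holds the ZT13 contrast known when the genes were chosen. The log2 fold change between ASIC1a-/- and WT hypothalamus at ZT13 minus that at ZT1 was 1.08 ± 0.108 (SE) for Egr1 and 1.02 ± 0.125 for Nr4a1. These values are descriptions, from which no difference between the times is read. No library stood apart from the other 3 of its group for any member, in 36 sets of 4 libraries examined with Dixon's test, where chance would mark about 1 in 20.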

How the results depend on the processing

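No called value of a member changed sign under any alternative run. Values near 0 that were not called did so with 1 library left out: the log2 fold change at ZT1 ran from -0.20 to 0.17 for Egr2 and from -0.27 to 0.090 for Egr4 (0.047 without the pair of libraries high in meningeal markers), that of time in WT mice from -0.090 to 0.056 for Nr4a1, -0.12 to 0.057 for Nr4a2 and -0.031 to 0.33 for Egr4, and that of time in ASIC1a-/- mice from -0.070 to 0.12 for Nr4a2. The difference in transcript length (ASIC1a-/- minus WT) ran from -5.61 to 0.568 bp for Egr1, -163.7 to 567 bp for Egr2 and -31.7 to 140.4 bp for Nr4a2 at ZT1, and at ZT13 from -2.44 to 0.975 bp for Egr1, -338 to 90.5 bp for Egr2, -13.5 to 59.1 bp for Nab1 and -31.1 to 35.3 bp for Nab2. The r of Nab2 with Egr1 was -0.037 without the 2 libraries most extreme in Egr1. The number of genes called between genotypes at ZT13, 16, was 29 (19 higher, 10 lower) with no filter and 30 by DESeq2, and 12 to 19 with 1 library left out. At ZT1, 2 genes were called, both lower, against 15 (10 higher, 5 lower) with no filter, 7 by DESeq2, 1 on each TPM setting and 2 to 5 with 1 library left out, with 5 without WT ZT1 replicate 1. The interaction, 3 genes, all higher, had 17 (11 higher, 6 lower) with no filter, 13 by DESeq2, 6 without the pair of libraries high in meningeal markers, an alternative chosen after seeing the data, and 3 to 7 with 1 library left out (7 without WT ZT13 replicate 4, 6 without ASIC1a-/- ZT13 replicate 2, 5 without WT ZT1 replicate 2). For time in ASIC1a-/- mice, 1792 genes became 971 on log2(TPM + 1), 969 on log2(TPM + 0.1), 911 on genes over 1 TPM, 1099 without the meningeal pair and 1162 to 1827 with 1 library left out (1162 without ASIC1a-/- ZT13 replicate 1). For time in WT mice, 2099 genes became 879, 882 and 846 on the same TPM settings and 1320 to 2190 with 1 library left out (1320 without WT ZT13 replicate 4, 1394 without WT ZT1 replicate 4). The cause was not tested.

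Replicate numbers are shared between groups, and 4 of 24 correlations of deviations between libraries of the same number were over 0.1 (range -0.32 to 0.22). Libraries of different numbers were not compared, so this cannot decide whether the numbers pair the mice. The main fit treated the libraries as unpaired. With the replicate number as a block, the interaction gave 5 genes and Nab1 was called for time in ASIC1a-/- mice (adjusted p = 0.0274), and no other member called in the ZT1 or time comparisons changed. Depth limits Egr2 and Egr4, with 6 to 25 expected counts per library outside the ASIC1a-/- ZT13 group.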
